A study of Mus musculus with 2 samples.

Results

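The nuclear genes for the proteins of the mitochondrial ribosome were followed in single-cell RNA-seq of mouse ES cells. Members were the genes whose symbol is Mrpl or Mrps, a number and at most 1 letter, without pseudogenes, and 78 of the 54146 gene rows of the files met this rule. All 78 are annotated as protein coding, on 17 chromosomes, with 11 of them on chromosome 11. The large subunit holds 51 of the proteins and the small subunit 26. *Mrps36* was placed in neither, since its product has been assigned to a metabolic enzyme complex, and *Mrps30* and *Mrps18a* encode proteins of the large subunit despite their symbols.

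Mitochondria translate the few mRNAs of their own genome, all for subunits of the respiratory chain and ATP synthase, on ribosomes built from rRNAs of that genome and from proteins made in the cytosol and imported. Some of these proteins descend from those of bacterial ribosomes, here 46 members, and others were gained in mitochondria, here 31. The stalk of the large subunit recruits translation factors, the central protuberance contacts tRNA and the small subunit, and proteins around the exit of the peptide tunnel face the inner membrane. Naive ES cells use both oxidative phosphorylation and glycolysis.

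The study profiled wild-type (WT) ES cells and *Lin28a* knockout (KO) ES cells, both derived from the inner cell mass and grown with embryonic fibroblast feeders on gelatin in LIF/2i. The labels give no agent for either, with untreated as the treatment of the WT and the knockout itself as that of the KO library. *Lin28a* encodes an RNA-binding protein of pluripotent cells that binds let-7 precursors and mRNAs. By the study's methods and legends each line was 1 clone, that of the KO made in transfected cells with CRISPR/CAS9 and a guide to exon 2 and that of the WT also taken through a transfection, so that genotype, clone and library cannot be told apart. Each genotype was 1 inDrop library, in which every captured transcript end is counted once by its unique molecular identifier (UMI), and no test between genotypes was possible. Cells were barcodes of at least 500 UMIs with at most 20% of UMIs on mitochondrially encoded (mt) genes: 1856 WT cells with 6140 UMIs and 1622 KO cells with 5063.5 UMIs at the median. Barcodes carry running numbers within each file, and barcodes shared by the libraries could not be counted.

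The ES markers, 8 of 8 detected and *Pou5f1* and *Nanog* among them, summed to 4274 CPM (UMIs scaled to 1000000 per library or class of cells) in WT and 4429 CPM in KO cells. Of the 8, *Pou5f1*, *Esrrb*, *Tdgf1* and *Dppa5a* had the higher CPM in KO and *Sox2*, *Zfp42*, *Klf4* and *Nanog* in WT cells, *Pou5f1* with 838 CPM in WT and 1014 CPM in KO cells and *Sox2* with 159 CPM in WT and 92.4 CPM in KO cells. *Lin28a* had 107 CPM in WT and 36.6 CPM in KO cells, a KO/WT ratio of 0.343 (0.304 to 0.387), although captured ends of its transcripts lie outside the targeted exon and do not check the edit itself. Markers of the feeder fibroblasts, also 8 of 8 detected, summed to 1287 CPM in WT and 615 CPM in KO cells. *Sparc* alone had 554 CPM in WT and 359 CPM in KO cells. Outside the fibroblast-like barcodes defined next it was at 268 CPM in WT and 276 CPM in KO cells, so that the sum is not a measure of feeder content. Barcodes with at least 0.5% of UMIs on *Col1a1*, *Col1a2* and *Col3a1* are called fibroblast-like here and were 41 WT and 21 KO cells. In them the mitoribosomal protein genes were at 0.619 (0.584 to 0.656) of their level in other WT cells and 0.700 (0.630 to 0.776) of that in other KO cells. Of 5 markers of the 2-cell-like state, 3 were at 0 in each library. The others were *Zscan4c* and *Zfp352* in WT cells, on 2 and 1 UMIs, and *Zfp352* and *Duxf3* in KO cells, on 5 and 1. Nothing is read from such counts.

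Summed over the 78 genes, WT cells held 54641 UMIs, a level of 4695 CPM (4655 to 4734) or 0.469% of all UMIs. KO cells held 45258 UMIs, a level of 4845 CPM (4801 to 4890.0). The KO/WT ratio was 1.03 (1.02 to 1.05). Intervals throughout are at 95%, exact Poisson for levels and from the exact binomial distribution for ratios. They cover counting error alone, neither the spread between cells of a library nor that between cultures. Among cells of at least 5000 UMIs, the share of cytosolic ribosomal protein genes had 82.1 (WT) and 93.5 (KO) times the variance of counting. For the mt share it was 37.2 and 69.1 times, so intervals for these genes are far narrower than the spread between cells. Under median of ratios scaling the ratio was 0.997 (0.985 to 1.01), so that the direction of this small difference turned with the scaling. A cell carried a median of 28 mitoribosomal UMIs from 22 members in WT and of 23 from 19 members in KO cells, and 19 and 22 cells carried none.

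Single members spanned 21.1-fold in level in WT and 14.9-fold in KO cells, and kept nearly the same order, with a Spearman rho of 0.962 across the 78 genes and 7 of the 10 highest shared. The highest was *Mrpl51* (chr6:125191801-125196269, plus strand, GRCm38), a large-subunit protein without a bacterial counterpart, at 219.9 CPM (211 to 229) in WT and 224 CPM (214 to 233) in KO cells. Its intervals lay above those of every other member in each library. By the mean of both libraries *Mrps25* followed at 146 CPM (139 to 153) in WT and 156 CPM (148 to 164) in KO cells, then *Mrps26* at 120.2 CPM (114 to 127) in WT and 166 CPM (157 to 174) in KO cells and *Mrpl35* at 149 CPM (142 to 157) in WT and 121 CPM (114 to 128) in KO cells. These 3 stood in a different order in each library. *Mrpl53*, a stalk protein, was at 132 CPM (126 to 139) in WT and 133 CPM (126 to 141) in KO cells. Exons of *Mrpl53* overlap *Gm42688*, and a further 568 WT and 408 KO UMIs were ambiguous between the 2 genes.

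By the mean of both libraries the lowest was *Mrps12*, a protein of the decoding centre, at 10.4 CPM (8.63 to 12.4) in WT and 15.7 CPM (13.3 to 18.5) in KO cells. In KO cells *Mrps22* and *Mrpl1* were lower, with intervals that overlap that of *Mrps12*. *Mrpl1*, which forms the stalk beside the tRNA exit, was at 17.2 CPM (14.9 to 19.7) in WT and 15.1 CPM (12.7 to 17.8) in KO cells. *Mrps27* was at 14.5 CPM (12.4 to 16.9) in WT and 18.1 CPM (15.5 to 21.04) in KO cells, *Mrps22* at 18.8 CPM in WT and 14.99 CPM in KO cells and *Mrpl54* of the other stalk at 19.6 CPM in WT and 23.0 CPM in KO cells. *Mrpl1* and *Mrps22* did not differ beyond their intervals in either library. Divided by exonic length, 1 of the 5 highest remained among the 5 highest: *Mrpl53* led at 168 CPM per kb, the mean of both libraries, and *Mrpl18*, *Mrpl52*, *Mrpl34* and *Mrps28* followed at 74.2 to 70.4 CPM per kb. A transcript end counts once whatever its length, so that this second order is another scale and not a correction.

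**Figure D1:**
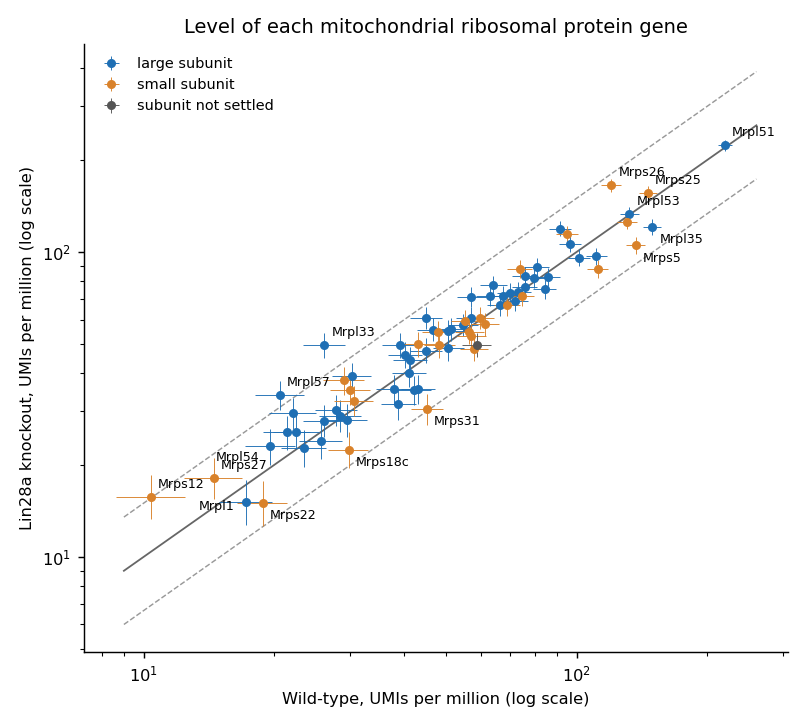
Level of each of the 78 genes in WT (horizontal) and KO cells (vertical), in CPM on log axes with 95% counting intervals; the solid line marks equal levels and the dashed lines a 1.5-fold difference. The points follow the line of equal levels, with *Mrpl33*, *Mrpl57* and *Mrps12* above the upper dashed line and no point below the lower.

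Between the genotypes the members lay close together. At least 1.5-fold higher in KO cells were 3 of 78, against 6.49% of the 9835 genes with at least 200 UMIs, and at least 1.5-fold lower 0 of 78, against 8.45%. The median ratio was 1.05 for the members and 1.01 for these genes. The ratio was above 1 for 49 of 78 members and for 52.3% of these genes. Its interval lay above 1 for 22 of 78 members, against 29.9% of these genes, and below 1 for 13 of 78, against 29.2%. Between its 10th and 90th percentile the ratio ran from 0.828 to 1.295 among members and from 0.682 to 1.39 among the 7937 genes within the members' range of 268 to 4648 UMIs.

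*Mrpl33* (chr5:31596935-31664384, plus strand, GRCm38), the counterpart of a small bacterial large-subunit protein, stood furthest up in KO cells. It had 26.1 CPM (23.3 to 29.2) in WT and 49.4 CPM (45.0 to 54.1) in KO cells, a KO/WT ratio of 1.89 (1.63 to 2.19). The ratio was 1.73 (1.38 to 2.17), 2.03 (1.57 to 2.65) and 1.86 (1.33 to 2.65) within the 3 upper classes of cells by cytosolic ribosomal protein (RP) share described further on. Its exons overlap *Gm43809* on the same strand, with 14 WT and 31 KO UMIs ambiguous between them. *Mrpl57*, a large-subunit protein gained in mitochondria, had 20.6 CPM (18.1 to 23.4) in WT and 33.8 CPM (30.2 to 37.8) in KO cells, a KO/WT ratio of 1.64 (1.38 to 1.95). *Mrps12* followed at 1.51 (1.18 to 1.94), just past the fold, with 10.4 CPM in WT and 15.7 CPM in KO cells. It was inside the fold with a minimum of 1000 UMIs per cell (1.47), without fibroblast-like cells (1.497) and under median of ratios scaling (1.46).

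Just inside the fold were *Mrps26* at 1.38 (1.28 to 1.48) and *Mrpl37* at 1.35 (1.200 to 1.53), the latter with 44.9 CPM in WT and 60.8 CPM in KO cells. *Mrpl12*, a stalk protein that also binds the mitochondrial RNA polymerase, had 91.6 CPM (86.2 to 97.3) in WT and 119 CPM (112 to 126) in KO cells, a ratio of 1.302 (1.196 to 1.42). At the other end was *Mrps31* (chr8:22411361-22429665, plus strand, GRCm38), a small-subunit protein gained in mitochondria, with 45.1 CPM (41.3 to 49.1) in WT and 30.5 CPM (27.1 to 34.3) in KO cells and a ratio of 0.676 (0.584 to 0.783). Its ratio passed the fold in cells of at least 5000 UMIs (0.632), without fibroblast-like cells (0.663) and under median of ratios scaling (0.653). In the same 3 RP classes it was 0.644 (0.510 to 0.809), 0.737 (0.571 to 0.948) and 0.636 (0.448 to 0.898).

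The next 4 from this end were of the small subunit too. *Mrps18c* was at 29.7 CPM in WT and 22.5 CPM in KO cells, a ratio of 0.756 (0.634 to 0.900), and *Mrps5*, a core protein at the mRNA entry, at 137 CPM in WT and 105 CPM in KO cells, a ratio of 0.768 (0.709 to 0.832). *Mrps33* was at 0.785 (0.719 to 0.858) and *Mrps22* at 0.797 (0.640 to 0.989). The 2 other genes of the S18 family lay above 1, *Mrps18b* at 1.200 (1.102 to 1.31) and *Mrps18a*, of the large subunit, at 1.14 (0.954 to 1.37), with an interval that held 1. *Mrps30* was at 1.09 (0.965 to 1.23) and *Mrps36* at 0.843 (0.748 to 0.950).

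By subunit, the summed KO/WT ratio was 1.05 (1.03 to 1.06) over 51 large-subunit genes, 35 of them above 1, and 1.01 (0.992 to 1.03) over 26 small-subunit genes, 14 of them above 1, beside 52.3% of all genes. Genes with a bacterial counterpart were at 1.01 (0.995 to 1.03) and those gained in mitochondria at 1.07 (1.05 to 1.09). By place in the ribosome, the 5 stalk genes were at 1.11 (1.06 to 1.16), the 5 of the central protuberance at 1.13 (1.06 to 1.198) and the 5 at the exit of the peptide tunnel at 0.984 (0.935 to 1.04). Single genes of the small subunit ran from 0.676 to 1.51 and those at the tunnel exit from 0.946 to 1.09. Those of the stalk ran from 1.006 to 1.302 and those of the central protuberance from 0.934 to 1.34, with 2 of these 5 below 1. The interval lay above 1 for 1 of the 5 stalk genes, *Mrpl12*, and for 3 of the 5 of the central protuberance, against 29.9% of all genes. Median of ratios scaling moves every KO/WT ratio down by the same factor of 1.035. No direction is therefore read from summed ratios as close to 1 as that of the large subunit, here or in the lists below.

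**Figure D2:**
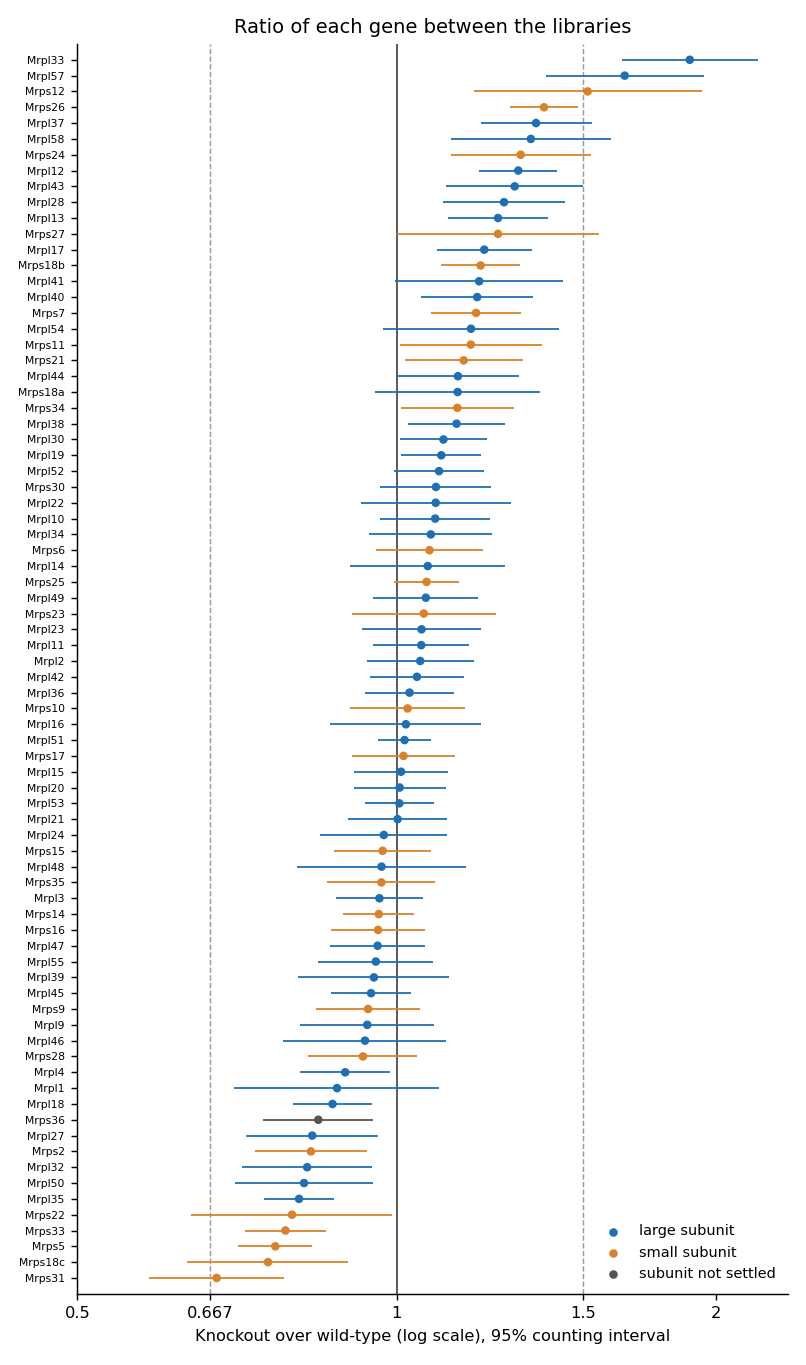
KO/WT ratio of each gene on a log axis, ordered by size, with 95% counting intervals and dashed lines at a 1.5-fold difference either way. Blue marks the large and orange the small subunit; the 5 lowest points are all of the small subunit.

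Genes that act beside the members were set against the same background of 6.49% higher and 8.45% lower. The 5 mitoribosomal proteins with other symbols had a summed KO/WT ratio of 1.07 (1.02 to 1.11), with 0 of 5 higher and 0 lower past the fold. They ran from *Chchd1* at 0.972 (0.883 to 1.07) and *Ptcd3* at 1.005 (0.929 to 1.09) to *Gadd45gip1* at 1.18 (1.01 to 1.38) and *Aurkaip1* at 1.21 (1.11 to 1.31). The 14 genes of mitochondrial translation stood slightly below 1, at 0.940 (0.914 to 0.967), with 0 of 11 higher and 0 lower past the fold. *Tufm*, the elongation factor that delivers tRNA, was at 1.29 (1.18 to 1.42) and the initiation factor genes *Mtif3* and *Mtif2* at 1.14 (0.885 to 1.46) and 0.805 (0.703 to 0.921). *Slirp*, whose product stabilises mitochondrial mRNAs with LRPPRC, was at 0.837 (0.787 to 0.890).

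Mitoribosome assembly and rRNA modification (20 genes) stood at 1.04 (0.995 to 1.08), with 0 of 16 higher and 0 lower past the fold. Its ends were the RNA helicase gene *Dhx30* at 1.44 (1.15 to 1.80) and *Eral1*, whose product binds the small rRNA, at 1.246 (1.04 to 1.49), and the rRNA methyltransferase gene *Tfb1m* at 0.808 (0.619 to 1.05) and *Mterf3* at 0.740 (0.618 to 0.883). The 8 genes of mitochondrial transcription and replication stood at 0.883 (0.843 to 0.926), with 0 of 8 higher and 0 lower past the fold. *Polg*, the DNA polymerase, was at 1.48 (1.29 to 1.70) and *Polrmt*, the RNA polymerase, at 1.22 (0.948 to 1.56). *Ssbp1*, which binds single-stranded mitochondrial DNA, was at 0.757 (0.705 to 0.812) and the transcription elongation factor gene *Tefm* at 0.705 (0.531 to 0.930).

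The 83 nuclear genes for subunits of oxidative phosphorylation (OXPHOS) were at 1.02 (1.01 to 1.02), with 1 of 81 higher and 0 lower past the fold. *Atp5o* and *Atp5g1* of ATP synthase led at 1.76 (1.44 to 2.16) and 1.37 (1.31 to 1.44), and *Ndufb6* and *Ndufc2* of complex I ended the order at 0.728 (0.674 to 0.787) and 0.700 (0.647 to 0.758). The mRNAs that mitoribosomes translate differed more. All 13 summed to 10413 CPM in WT and 16112 CPM in KO cells, a ratio of 1.55 (1.54 to 1.56), with 4 of 12 higher and 0 lower past the fold. *mt-Co2* was at 2.27 (2.23 to 2.32) and *mt-Cytb* at 2.22 (2.15 to 2.29), while *mt-Nd2* was at 0.902 (0.880 to 0.924) and *mt-Nd4l* at 0.760 (0.641 to 0.899). The 88 cytosolic RP genes were at 1.09 (1.08 to 1.09), with *Rpl41* at 1.57 (1.54 to 1.61) and *Rps20* at 1.39 (1.36 to 1.42) at the upper end and *Rpl34* at 0.877 (0.844 to 0.912) and *Rpl36al* at 0.873 (0.838 to 0.911) at the lower, and 1 of 87 higher and 0 lower past the fold.

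Within each library the level of the mitoribosomal protein genes went with the cytosolic RP share of a cell, in which the members have no part. WT cells under 5% RP held 2382 CPM (2086 to 2709), those from 5% to 10% 4238 CPM (4188 to 4289), those from 10% to 15% 4914 CPM (4841 to 4988) and those of 15% or more 6058 CPM (5942 to 6175). The KO cells of these classes held 3429 CPM (3230.5 to 3636), 4241 CPM (4173 to 4311), 4941 CPM (4868 to 5016) and 5883 CPM (5779.8 to 5987). Both libraries had the same order, and the intervals of neighbouring classes did not overlap. Class by class the KO/WT ratio was 1.44 (1.249 to 1.66) under 5% RP and 1.001 (0.981 to 1.02), 1.01 (0.985 to 1.03) and 0.971 (0.946 to 0.997) in the other 3.

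Cells fell into these classes differently. Those of 15% or more RP were 11.96% of WT and 21.5% of KO cells, and those under 5% were 4.90% and 14.4%. With the ratios within the 4 classes averaged by the WT UMIs of each class, which gives the class under 5% RP little weight, an alternative chosen after seeing the data, KO/WT of the summed level was 1.002 in place of 1.03. The same mean was 1.068 over the 5 classes of mt share given next and 1.049 over 5 classes of depth, so that the direction of the move depends on how cells are classed. Cells under 5% RP were shallow, with 830 UMIs in WT and 1200 UMIs in KO cells at the median, and 7 of the 91 WT and 11 of the 233 KO cells were fibroblast-like. Their median mt share was 4.32% in WT and 5.98% in KO cells, against 1.42% and 1.80% in cells of 5% to 15% RP, and 76 of 91 and 221 of 233 were at 2% mt or more. The part of depth, mt share and fibroblast-like cells in their level was not tested.

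By mt share the order ran the other way. In WT cells the 78 genes held 5992 CPM (5883 to 6103) under 0.5% mt, 4939.8 CPM (4844 to 5037) from 0.5% to 1%, 4379 CPM (4322 to 4436) from 1% to 2%, 4192 CPM (4109 to 4275) from 2% to 5% and 2220.1 CPM (1818 to 2685) from 5% to 20%. In KO cells they held 5871 CPM (5763 to 5982), 5547 CPM (5395 to 5702), 4823 CPM (4744 to 4904), 4209.7 CPM (4140.2 to 4280.1) and 3488 CPM (3280.4 to 3705). The KO/WT ratio was 0.980 (0.954 to 1.01) under 0.5% mt, 1.123 (1.09 to 1.16), 1.102 (1.08 to 1.125) and 1.004 (0.979 to 1.03) in the next 3 classes and 1.57 (1.29 to 1.94) from 5% to 20%, where the WT class held 44 cells and 106 mitoribosomal UMIs. Cells from 0.5% to 1% mt were of unlike depth, with 5834 UMIs in WT and 1749.5 UMIs in KO cells at the median. The part of depth in the ratio of that class was not tested. By depth the KO/WT ratio was 1.42 (1.26 to 1.61) in cells of 500 to 1000 UMIs and 0.992 (0.969 to 1.01) in those of 10000 or more, and between 1.02 (0.903 to 1.15) and 1.08 (1.04 to 1.123) in the 3 classes between them. Cells rich in the transcripts of the mitochondrial genome held a smaller share of the mRNAs for the mitoribosome. This held for nuclear OXPHOS and cytosolic RP genes too, with values in the comparison below. The 2 shares that set the classes went against each other, with a Spearman rho of -0.733 over 1856 WT and -0.860 over 1622 KO cells. Of the cells of 15% or more RP, 220 of 222 in WT and 323 of 349 in KO were under 1% mt.

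**Figure D3:**
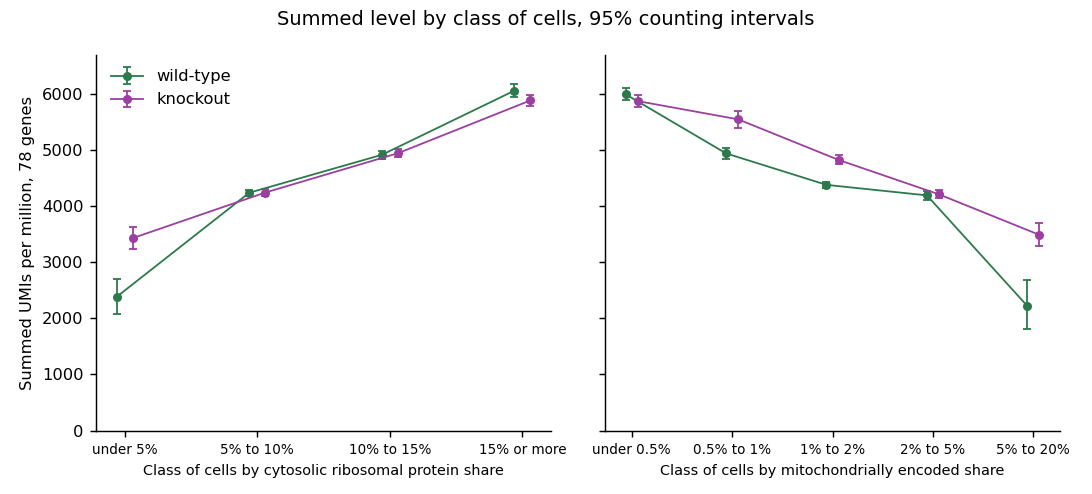
Summed level of the 78 genes in CPM by class of cells, by cytosolic RP share on the left and by mt share on the right, for WT (green) and KO (purple) cells with 95% counting intervals. The level climbs with the RP share, up to 6058 CPM in WT cells, and descends with the mt share.

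For single genes, cells of 2% or more mt were set against cells under 1% mt of the same library. The summed level was at a ratio of 0.763 (0.745 to 0.781) over 440 and 614 WT cells and of 0.720 (0.704 to 0.736) over 666 and 547 KO cells. At least 1.5-fold lower were 32 of 75 members in WT cells (background 21.6%) and 35 of 76 in KO cells (background 23.5%). At least 1.5-fold higher were 2 of 75 members in WT cells (background 29.5%) and 4 of 76 in KO cells (background 41.0%). The background is the share of all genes with at least 100 UMIs in the compared cells. The median ratio was 0.716 over members and 1.05 over all genes in WT cells, and 0.685 and 1.19 in KO cells. In cells of 5% to 15% RP alone, an alternative chosen after seeing the data, the summed ratio was 0.846 (0.824 to 0.869) in WT and 0.775 (0.749 to 0.802) in KO cells. Without that limit, nuclear OXPHOS genes were at 0.711 (0.701 to 0.720) in WT and 0.695 (0.687 to 0.704) in KO cells. Cytosolic RP genes were at 0.588 (0.585 to 0.591) and 0.544 (0.542 to 0.547). Mitochondrial translation genes were at 0.866 (0.822 to 0.912) and 0.905 (0.859 to 0.953), and assembly genes at 0.985 (0.915 to 1.06) and 0.978 (0.911 to 1.05).

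*Mrpl28*, a large-subunit protein with a bacterial counterpart, was among the lowest in both libraries, with 19.5 against 62.3 CPM in WT and 30.9 against 80.9 CPM in KO cells, ratios of 0.312 (0.224 to 0.428) and 0.382 (0.302 to 0.481). *Mrpl58*, a peptidyl-tRNA hydrolase built into the central protuberance, was at 0.321 (0.204 to 0.488) in WT and 0.402 (0.296 to 0.541) in KO cells, and the core protein gene *Mrpl2* at 0.371 (0.284 to 0.480) in WT and 0.457 (0.370 to 0.562) in KO cells. *Mrpl14* was at 0.477 (0.331 to 0.674) in WT and 0.350 (0.254 to 0.477) in KO cells and *Mrps12*, which had under 100 UMIs in the WT cells compared, at 0.352 (0.172 to 0.664) in WT and 0.387 (0.254 to 0.582) in KO cells. They were named for being lowest in this comparison. Past the fold downwards in both libraries were 27 of 74 members, against 17.2% of all genes measured in both.

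Past it upwards in both libraries were 2 of 74 members, *Mrps2* and *Mrpl50*, against 28.0% of all genes. *Mrps2* had 82.4 against 37.8 CPM in WT and 63.8 against 19.96 CPM in KO cells, ratios of 2.18 (1.75 to 2.71) and 3.19 (2.38 to 4.36). *Mrpl50* had 49.3 against 23.7 CPM and 43.9 against 11.8 CPM, ratios of 2.08 (1.57 to 2.75) and 3.73 (2.55 to 5.61). *Mrpl47*, at the exit of the peptide tunnel, came next at 1.42 (1.17 to 1.71) in WT and 1.53 (1.248 to 1.88) in KO cells.

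Cells of 15% or more RP, called RP-rich here, were set against cells of 5% to 15% RP. The summed level was at a ratio of 1.35 (1.32 to 1.38) over 222 and 1543 WT cells and of 1.28 (1.254 to 1.31) over 349 and 1040 KO cells. At least 1.5-fold higher were 37 of 78 members in WT cells (background 20.2%) and 31 of 78 in KO cells (background 19.6%). At least 1.5-fold lower were 7 of 78 members in WT cells (background 43.1%) and 6 of 78 in KO cells (background 41.9%). In both libraries at once, 28 of 78 were past the fold upwards, against 15.8% of all genes, and 4 of 78 downwards, against 36.6%. The median ratio was 1.47 over members and 0.776 over all genes in WT cells, and 1.37 and 0.800 in KO cells. RP transcripts fill more of the total in RP-rich cells, and with mt and RP genes taken out of the total the summed ratio was 1.46 in WT and 1.36 in KO cells. Nuclear OXPHOS genes were at 1.44 (1.43 to 1.46) and 1.31 (1.29 to 1.32), mitochondrial translation genes at 1.06 (1.01 to 1.118) and 0.966 (0.918 to 1.02), and assembly genes at 0.997 (0.924 to 1.07) and 0.978 (0.910 to 1.05).

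The 3 largest ratios were those of *Mrpl58*, *Mrps11* and *Mrpl2* in WT cells and of *Mrpl54*, *Mrpl14* and *Mrpl2* in KO cells. These members were named for being largest in this comparison. *Mrpl2* (chr17:46646229-46650139, plus strand, GRCm38), a core protein near the peptidyl transferase centre, had 10.2, 38.2, 56.5 and 115 CPM from the lowest to the highest RP class of WT cells and 24.5, 39.8, 49.98 and 104 CPM in KO cells. The first WT value is below the 30.7 CPM that 3 UMIs would be in that class. The ratio of *Mrpl2* was 2.56 (2.15 to 3.03) in WT and 2.32 (1.94 to 2.76) in KO cells. In both libraries the interval at 15% or more RP lay above those of the other classes. *Mrpl14*, which contacts the small subunit, was at 2.53 (1.96 to 3.25) in WT and 2.40 (1.86 to 3.08) in KO cells, and *Mrpl54* at 2.34 (1.73 to 3.13) in WT and 2.75 (2.08 to 3.64) in KO cells. *Mrpl58* was at 2.69 (2.04 to 3.52) in WT and 2.19 (1.70 to 2.81) in KO cells and *Mrps11*, of the platform that holds the mRNA, at 2.65 (2.10 to 3.34) in WT and 1.77 (1.40 to 2.24) in KO cells. The member with the highest level, *Mrpl51*, also had its own highest level in RP-rich cells, with 71.6, 193, 226 and 316 CPM in WT and 156, 175, 210.2 and 335 CPM in KO cells.

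The 4 members past the fold downwards in both libraries were *Mrps2*, *Mrpl50*, *Mrpl1* and *Mrps22*. *Mrps2* (chr2:28468066-28471178, plus strand, GRCm38), a small-subunit protein with a bacterial counterpart, had 73.6, 51.7 and 16.4 CPM in the 3 upper RP classes of WT cells and 71.6, 52.6 and 8.05 CPM in those of KO cells. Its ratio was 0.249 (0.164 to 0.363) in WT and 0.130 (0.0749 to 0.210) in KO cells. *Mrpl50* (chr4:49512596-49521093, minus strand, GRCm38), a large-subunit protein gained in mitochondria, had 48.7, 34.6 and 12.9 CPM in WT and 47.4, 31.6 and 8.05 CPM in KO cells, with ratios of 0.295 (0.183 to 0.452) and 0.204 (0.117 to 0.333). Both were lower at each step, with intervals that did not overlap. *Mrpl1* was at 0.367 (0.186 to 0.656) in WT and 0.261 (0.122 to 0.497) in KO cells, on 12 and 10 UMIs in RP-rich cells, and *Mrps22* at 0.483 (0.276 to 0.793) in WT and 0.432 (0.239 to 0.730) in KO cells.

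**Figure D4:**
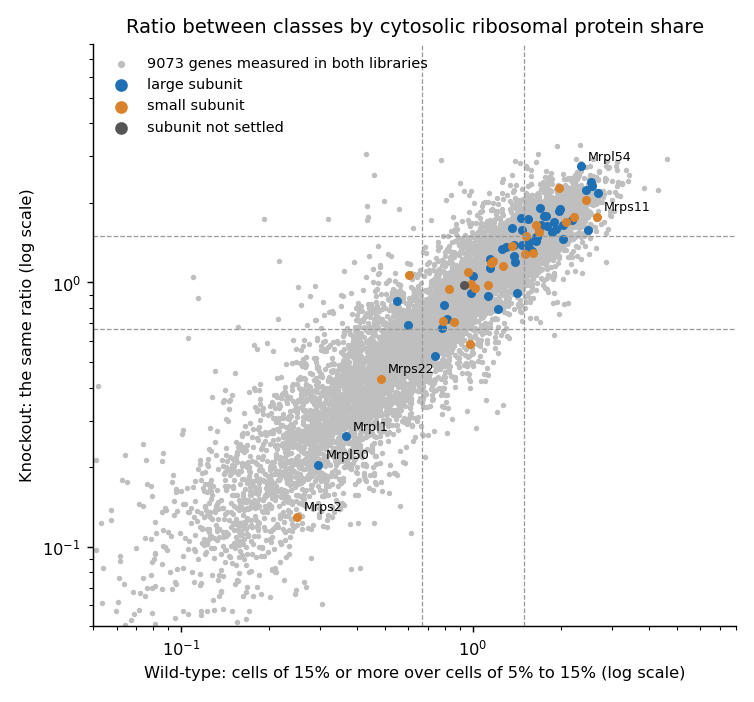
Ratio of RP-rich cells to cells of 5% to 15% RP for each gene, in WT (horizontal) and KO cells (vertical), on log axes with dashed lines at 1.5-fold; grey points are the 9073 genes measured in both libraries and coloured points the 78 members. Most members lie to the upper right of the centre of the grey cloud, and *Mrps2*, *Mrpl50*, *Mrpl1* and *Mrps22* lie apart at the lower left.

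The 2 libraries, made from different clones, gave ratios of RP-rich cells with a Spearman rho of 0.923 across the 78 members and 0.932 across 9073 genes. In the mt comparison the rho was 0.849 over 74 members and 0.933 over all genes, and in that of cells under 5% RP 0.450 over 77 members and 0.713 over all genes. The ratios also went with exonic length. Between length and the ratio of RP-rich cells the rho was -0.389 in WT and -0.354 in KO cells over members and -0.424 and -0.415 over all genes. In the mt comparison it was 0.405 and 0.383 over members and 0.473 and 0.489 over all genes. In that of cells under 5% RP it was 0.210 and 0.434 over members and 0.412 and 0.510 over all genes. Members were short, with a median of 2.39 kb against 4.11 kb. In the RP-rich comparison, members of up to 1.67 kb had a median ratio of 1.60 in WT and 1.51 in KO cells, and those from 3.30 kb 1.15 and 1.16. The part of length in the ratios was not tested.

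Promoters are shown because many members were higher in the same cells and a few were lower there. RefSeq promoters (250 bases before to 50 after the start, GRCm38.p6) were matched to 69 of the 78 members by symbol. On both strands, the letters searched were GCATGCGC (core of the NRF1 motif), CCGGAAG (ETS factors) and ATGGCGGC (YY1), factors known to bind promoters of nuclear genes for mitochondrial proteins. The NRF1 core was found in 8 of 69 members (11.6%) and in 3.05% of 27025 genes, the ETS core in 26 (37.7%) and 9.93%, and the YY1 core in 12 (17.4%) and 2.60%. These 27025 genes are all those with a RefSeq promoter, whatever their level in these cells. Whether members differ from other genes of like level was not tested. At least 1 core was in 36 members (52.2%) and 14.2% of genes, and matches overlapped in 3 of the 75 promoters of members. Of the 28 members past the fold upwards in RP-rich cells of both libraries, 24 had a promoter, with the NRF1 core in 3, the ETS core in 7 and the YY1 core in 4. Of the 4 past it downwards, 0 held the NRF1 core, 1 the ETS core and 1 the YY1 core. A match describes letters in this window and is not a binding site.

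The 6 promoters are those of the members at both ends of the KO/WT ratio (*Mrpl33*, *Mrps31*), of the highest member (*Mrpl51*), of a member higher in RP-rich cells (*Mrpl14*) and of the 2 lowest there (*Mrps2*, *Mrpl50*). Each runs 5′ to 3′ along the strand of its gene in GRCm38.p6, with matches to the cores in capitals.
Mrpl33, chr5:31613701-31614000, plus strand: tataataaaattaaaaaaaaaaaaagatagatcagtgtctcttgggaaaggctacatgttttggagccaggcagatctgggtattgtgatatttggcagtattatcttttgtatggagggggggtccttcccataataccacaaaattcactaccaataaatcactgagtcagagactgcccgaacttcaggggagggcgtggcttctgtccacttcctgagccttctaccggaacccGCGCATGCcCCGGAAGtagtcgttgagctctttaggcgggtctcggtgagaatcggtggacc
Mrps31, chr8:22411090-22411389, plus strand: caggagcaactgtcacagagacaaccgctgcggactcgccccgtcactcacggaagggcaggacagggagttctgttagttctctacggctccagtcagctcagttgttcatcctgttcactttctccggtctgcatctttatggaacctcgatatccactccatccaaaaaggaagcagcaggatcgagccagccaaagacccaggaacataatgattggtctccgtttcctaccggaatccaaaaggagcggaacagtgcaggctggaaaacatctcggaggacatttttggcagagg
Mrpl51, chr6:125191950-125192249, plus strand: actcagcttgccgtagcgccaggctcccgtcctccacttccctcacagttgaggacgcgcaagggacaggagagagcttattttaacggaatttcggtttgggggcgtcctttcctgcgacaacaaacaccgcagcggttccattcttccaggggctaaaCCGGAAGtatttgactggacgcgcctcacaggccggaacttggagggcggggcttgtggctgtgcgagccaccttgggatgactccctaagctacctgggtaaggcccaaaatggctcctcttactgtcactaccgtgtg
Mrpl14, chr17:45686099-45686398, plus strand: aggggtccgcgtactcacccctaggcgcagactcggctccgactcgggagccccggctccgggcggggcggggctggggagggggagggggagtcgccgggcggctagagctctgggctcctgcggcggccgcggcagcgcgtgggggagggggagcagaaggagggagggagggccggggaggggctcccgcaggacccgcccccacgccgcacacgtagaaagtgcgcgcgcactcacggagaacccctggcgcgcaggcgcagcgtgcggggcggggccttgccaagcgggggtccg
Mrps2, chr2:28467816-28468115, plus strand: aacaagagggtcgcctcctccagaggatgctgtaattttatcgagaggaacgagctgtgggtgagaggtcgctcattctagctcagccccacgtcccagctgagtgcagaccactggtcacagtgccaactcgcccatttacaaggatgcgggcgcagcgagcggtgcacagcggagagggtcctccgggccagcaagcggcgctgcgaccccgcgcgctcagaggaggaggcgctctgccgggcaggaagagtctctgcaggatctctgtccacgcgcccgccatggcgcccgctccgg
Mrpl50, chr4:49521034-49521333, minus strand: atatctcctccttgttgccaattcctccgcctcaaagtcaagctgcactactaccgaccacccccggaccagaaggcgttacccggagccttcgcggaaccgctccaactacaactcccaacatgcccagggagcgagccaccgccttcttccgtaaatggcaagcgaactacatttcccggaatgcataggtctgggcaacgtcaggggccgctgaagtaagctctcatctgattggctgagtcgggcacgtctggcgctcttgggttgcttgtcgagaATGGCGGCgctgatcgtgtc
The promoter of *Mrpl33* holds an NRF1 core on the other strand and, next to it, an ETS core that spans the RefSeq start. That start lies 17016 bases downstream of the start of the gene in GENCODE, so that this window is within the GENCODE gene. *Mrpl51* holds an ETS core upstream of its RefSeq start, which lies 399 bases inside the gene as GENCODE places it, so that this core is within the GENCODE gene, and *Mrpl50* a YY1 core within its transcribed bases. *Mrps31*, *Mrpl14* and *Mrps2* hold none of these letters in this window.

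Cells under 5% RP were set against the same cells of 5% to 15% RP. The summed level was at a ratio of 0.532 (0.465 to 0.605) in WT cells, where 91 cells held 233 mitoribosomal UMIs, and of 0.746 (0.702 to 0.792) in KO cells, where 233 cells held 1118. At least 1.5-fold lower were 53 of 77 members in WT cells (background 39.7%) and 47 of 77 in KO cells (background 39.2%). Of the 53 in WT cells, 18 had 0 UMIs and 32 had 1 to 3 in the cells under 5% RP, so nothing is read from that count. Both at least 1.5-fold lower and with an interval below 1 were 22 of 77 members in WT cells (background 14.8%) and 31 of 77 in KO cells (background 28.1%). At least 1.5-fold higher were 8 of 77 members in WT cells (background 31.1%) and 6 of 77 in KO cells (background 29.8%). At this depth 19 of the 78 members had 0 UMIs in the WT cells, where 3 UMIs would be 30.7 CPM, among them *Mrpl10* of the stalk, *Mrpl24* at the tunnel exit, *Mrpl58*, *Mrps2* and *Mrpl50*, and no ratio is given for these. In KO cells the lowest were *Mrpl14* at 0.141 (0.00355 to 0.798) on 1 UMI, the stalk gene *Mrpl11* at 0.142 (0.0291 to 0.417) on 3 UMIs and *Mrps2* at 0.198 (0.0537 to 0.510) on 4. Nuclear OXPHOS genes were at 0.327 (0.298 to 0.359) in WT and 0.404 (0.386 to 0.422) in KO cells, and mitochondrial translation genes at 0.412 (0.294 to 0.561) and 0.608 (0.523 to 0.702). Assembly genes summed to a ratio of 0.838 (0.595 to 1.15) in WT and 1.19 (1.03 to 1.38) in KO cells. The median over their single genes was below 1 in both libraries, at 0.746 in WT and 0.854 in KO cells, so no reversal of the list is read from the sums.

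With the 0.5 UMIs added to each count, 5 of 77 members were past the fold upwards in both libraries, against 20.4% of all genes. Without that addition 3 were, *Mrps26*, *Mrpl19* and *Mrpl47*, and not *Mrpl23* and *Mrps10*. *Mrps26* (chr2:130563742-130568695, plus strand, GRCm38), a small-subunit protein gained in mitochondria, had 286 CPM in WT cells under 5% RP against 122, 114 and 115 CPM in the upper classes, and 454 CPM in KO cells against 161, 143 and 166 CPM. Its ratio was 2.40 (1.59 to 3.48) in WT and 2.99 (2.50 to 3.56) in KO cells. *Mrpl19*, a large-subunit protein with a bacterial counterpart, was at 2.03 (1.22 to 3.19) in WT and 2.90 (2.31 to 3.60) in KO cells. *Mrpl47*, at the tunnel exit, was at 3.22 (2.03 to 4.87) in WT and 1.51 (1.04 to 2.11) in KO cells. *Mrpl23*, also at the tunnel exit, was at 1.44 (0.526 to 3.17) in WT and 1.81 (1.14 to 2.75) in KO cells, and *Mrps10* at 1.67 (0.718 to 3.32) in WT and 1.48 (0.944 to 2.22) in KO cells.

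*Mrps26*, *Mrpl19* and *Mrpl47* together made up 30.0% of mitoribosomal UMIs in WT cells under 5% RP and 6.43% in those of 5% to 15%, and 24.8% and 7.04% in KO cells. No cell under 5% RP held more than 5 UMIs of *Mrps26*. Over the other 75 members, a set chosen after the values were seen, the summed ratio was 0.398 (0.339 to 0.464) in WT and 0.604 (0.563 to 0.647) in KO cells, and KO/WT under 5% RP was 1.55 (1.31 to 1.84). Exons of *Mrps26* overlap *4930473A02Rik*, those of *Mrpl19* overlap *Gcfc2*, and those of *Mrpl47* overlap *Actl6a* and *Ndufb5*, all on the other strand. Such an overlap is not particular to these genes, since 28 of the 78 members have one. Whether the counting used strand is not given in the sources used here.

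**Figure D5:**
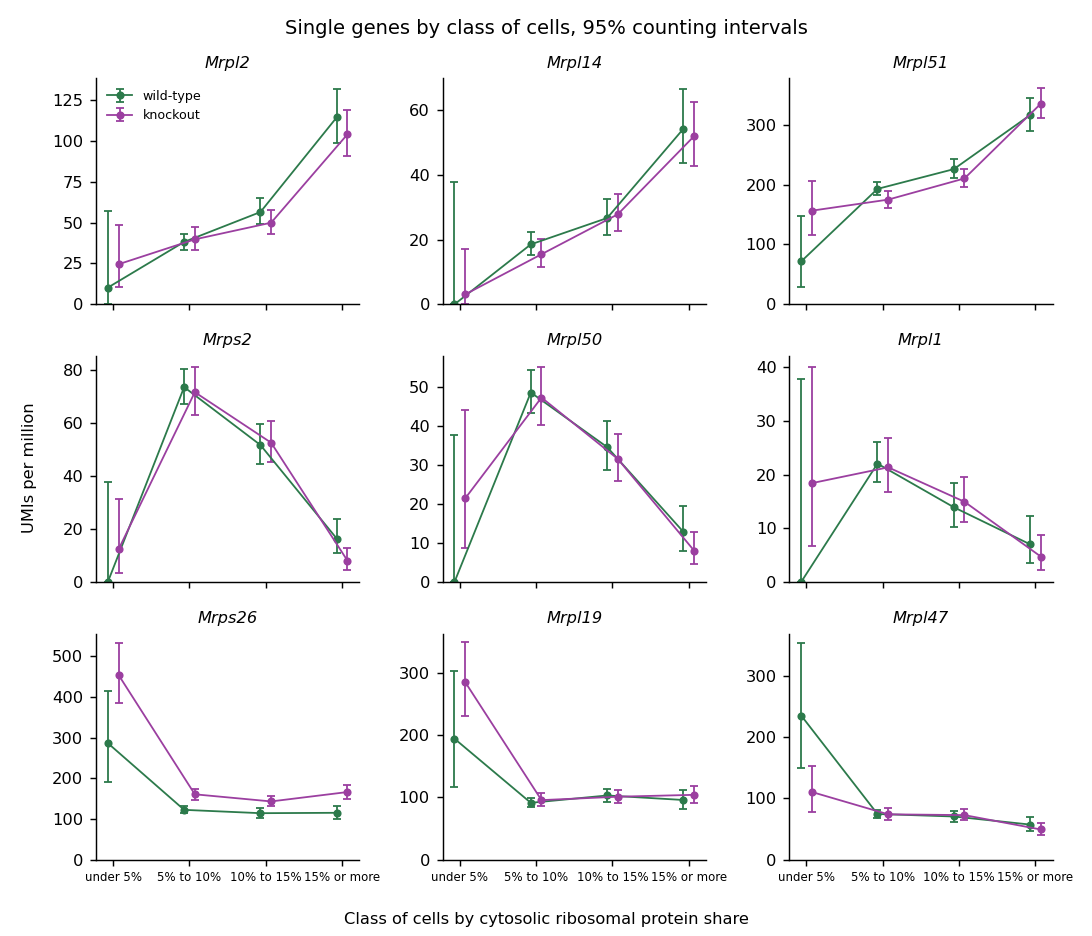
Level of 9 members in CPM by class of cells by cytosolic RP share, for WT (green) and KO (purple) cells with 95% counting intervals. *Mrpl2*, *Mrpl14* and *Mrpl51* (top) are highest at 15% or more RP, *Mrps2*, *Mrpl50* and *Mrpl1* (middle) are lower there than at 5% to 10%, and *Mrps26*, *Mrpl19* and *Mrpl47* (bottom) are highest under 5%.

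Across single cells of at least 5000 UMIs, 1234 in WT and 821 in KO, the mitoribosomal share of UMIs had a median of 0.465% in WT and 0.483% in KO cells, with 10th and 90th percentiles of 0.333% and 0.632% in WT and 0.350% and 0.645% in KO. Its variance was 2.40 and 2.53 times that of counting. Beyond counting the coefficient of variation was 20.2% in WT and 17.6% in KO cells. Without fibroblast-like cells it was 18.1% and 17.4%, and in cells of 5000 to 10000 UMIs 18.5% and 18.6%, so no difference between the libraries is read from it. The share went with that of nuclear OXPHOS genes at a Spearman rho of 0.534 in WT and 0.560 in KO cells, with the RP share at 0.501 and 0.549, with the mt share at -0.433 and -0.564 and with other mitochondrial translation genes at 0.199 and 0.138. Large-subunit and small-subunit shares went together at 0.274 and 0.355. All these shares come from the same cells and totals, with a median of 35 and 43 mitoribosomal UMIs a cell. Over all kept cells the translation genes were sparse, at 998 CPM in WT and 938 CPM in KO, against 15247 and 15498 CPM for OXPHOS genes. Counting error weighs more on so sparse a list, and its lower rho is not read as a weaker link. With mt and RP genes out of the total, the rho with OXPHOS was 0.594 and 0.632.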

How the data were processed

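Single-cell RNA-seq of 1 WT and 1 *Lin28a* KO ES cell library was analysed. The files the authors deposited hold UMI counts that are not normalised, a row a gene and a column a barcode, with 12079546 UMIs in 4329 WT barcodes and 10027710 UMIs in 6060 KO barcodes of any depth. The matrices come from an inDrop pipeline by the methods. The submitters' processing notes name mm10 and Seurat 2.3.4. The aligner and annotation are not given in the sources used here. The files also give 63462 WT and 58924 KO UMIs as ambiguous between genes, which were not used as counts.

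Gene identifiers were named through GENCODE M21 (GRCm38), in which 54079 of 54146 matched without their version and 52480 with it. Cells were kept with 500 UMIs or more and an mt share of at most 20%, as in the methods. Counts of each library or class of cells were added up and given as CPM of all UMIs, 11639256 in WT and 9340855 in KO cells, with exact Poisson intervals. Ratios have intervals from the exact binomial distribution. Ratios of single genes were read where they had at least 200 UMIs over both libraries, or 100 over both classes of a library, with 0.5 added to each count when counting genes past a fold of 1.5. No doublet caller was run and no doublets were removed. PCR copies are collapsed by the UMI, and the intervals and the floor of 3 counts cover counting error only. Calculations were checked on simulated data.

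The members and lists were chosen with earlier results of these data known. Named are the 5 members with the highest and lowest level, the 5 with the largest and smallest ratio between the libraries, the 3 at each end of each comparison within a library, 2 at each end of each related list, and *Mrps30*, *Mrps18a*, *Mrps18b*, *Mrps18c*, *Mrps36*, *Mrpl12* and *Lin28a*. Other members named were chosen after their values were seen. Alternatives were a minimum of 1000 or 5000 UMIs, an mt limit of 0.1, no fibroblast-like cells, a total without mt and RP genes, scaling by the median of ratios (genes of 50 UMIs or more per library), a fold limit of 0.32 on the log2 scale, no minimum beyond 1 UMI and CPM per kb. Alternatives within RP, mt or depth classes, and without cells under 5% RP, were chosen after seeing the data. The work used matplotlib 3.10.9, pandas 2.3.3, scipy 1.17.1 and numpy 2.4.6 in Python 3.11.15.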

Additional observations from a re-analysis of the deposited data

Results flagged for a closer look

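Barcodes under 500 UMIs, which entered no comparison, held mitoribosomal UMIs above the limit that a count of 0 allows. Over 2472 WT barcodes with a median of 147 UMIs the 78 genes summed to 3628 CPM (3452 to 3811), and over 4423 KO barcodes with a median of 129 UMIs to 3975 CPM (3826 to 4129), where 3 UMIs would be 6.83 and 4.46 CPM.

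*Mrpl47* stood apart there, at 460.1 CPM against 72.1 CPM in WT cells and 420.4 CPM against 69.2 CPM in KO cells, ratios of 6.38 (5.45 to 7.45) and 6.08 (5.27 to 7.001). The median ratio over members was 0.6673 and 0.681, and over all genes 0.834 and 0.893. At least 1.5-fold higher in these barcodes were 4 of 76 members in WT, against 11.1% of all genes, and 5 of 74 in KO, against 11.5%. At least 1.5-fold lower were 37 of 76 in WT, against 29.7% of all genes, and 33 of 74 in KO, against 24.2%. These barcodes held 19.4% of the *Mrpl47* UMIs and 3.64% of all UMIs in WT, and 30.5% and 6.72% in KO. *Mrps26* was at 0.587 (0.398 to 0.838) and 0.835 (0.670 to 1.03) of its level in kept cells, and *Mrpl19* at 0.756 (0.515 to 1.07) and 0.532 (0.374 to 0.735).

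Pseudogenes of the family, left out by the rule, had UMIs of their own in kept cells. *Mrpl23-ps1* had 585 WT and 572 KO UMIs, more than the 523 and 443 of *Mrpl23*. *Mrps36-ps1* had 116 WT and 93 KO UMIs, *Mrps36-ps2* 99 WT and 100 KO UMIs and *Mrpl48-ps* 50 WT and 46 KO UMIs. How reads were split between these copies and their parent genes was not tested, so that the levels of *Mrpl23*, *Mrps36* and *Mrpl48* are uncertain.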

How the results depend on the processing

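With 1 library per condition and no replicates, a value was read as moved where it left the counting interval of the reported value. The ratio of the summed level between the libraries was 1.049 with mt and RP genes taken out of the total, 1.002, 1.068 and 1.049 as the mean of the ratios within RP, mt and depth classes weighted by WT UMIs, and turned to 0.997 (0.985 to 1.01) under median of ratios scaling. Members at least 1.5-fold lower in the knockout library were 0 as reported and 1 (*Mrps31*) with a minimum of 5000 UMIs, without fibroblast-like cells and under median of ratios scaling. At a limit of 0.32 on the log2 scale they were 5, against 20.8% of all genes, and those higher were 10, against 19.7%. Without mt and RP genes in the total, the mt comparison moved to 0.731 in wild-type and 0.682 in knockout cells and the comparison of cells of 15% or more RP to 1.46 and 1.36. In cells of 5% to 15% RP the mt comparison moved to 0.846 and 0.775. In cells of 0.5% to 5% mt the RP-rich comparison moved to 1.23 in wild-type cells, over 32 and 1463 cells, and that of cells under 5% RP to 0.811 in knockout cells. With a minimum of 5000 UMIs the latter was 0.580 (0.317 to 0.974). None of these 6 comparisons within a library changed direction under the alternatives run. The ratios of 36 named genes stayed within their counting intervals under each of 7 alternatives. Between 34 and 36 of them kept their side of 1. No paired analysis was possible because each condition had 1 library. Depth limits single genes in small classes of cells, such as the 91 wild-type cells under 5% RP, where 3 counts are 30.7 CPM.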
